A study of Mus musculus with 20 samples.

Results

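The kinesin superfamily, the motor proteins that use ATP to walk along microtubules or to take them apart, was followed in the mouse uterus after estradiol (E2) and the xenoestrogens bisphenol A (BPA) and HPTE, the hydroxylated metabolite of the pesticide methoxychlor. Its members were the genes whose array name begins with Kif and a digit or with Kifc, which gave 35 genes on 72 probes out of 27962 gene names on the array. Each gene was read from its probe with the highest mean log2 signal over the 20 arrays, and all 35 passed the filter on dim probes. By textbook role 10 were mitotic (Kif11, Kif15, Kifc1, Kif4, Kif22, Kif18a, Kif2c, Kif20a, Kif23 and Kif14). Another 17 carry cargo in non-dividing cells and are called transport kinesins here, and 8 have other roles, several of them at cilia. Kif2a and Kif2b were placed among these 8, although they are of the same family as Kif2c and Kif2a acts at spindle poles. The classes were set with earlier results of these data known. Cenpe and Kif20b, listed on the array under the name Mphosph1, are kinesins too, but their array names fall outside the rule.

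All mice were ovariectomized C57bl6/J females of at least 10 weeks, rested for 10 to 14 days and injected once subcutaneously in 100 µl of sesame oil, and each array held the Cy3-labeled RNA of a single uterus. The vehicle group received oil alone (3 arrays, labeled as 24 hr and used here for both times). The series holds no vehicle array at 2 hr. In comparisons with vehicle at 2 hr, or between times within a compound, effects of compound and of time since injection cannot be told apart. E2 was given at 250 ng, with 3 uteri collected at 2 hr and 2 at 24 hr. BPA and HPTE were each given at 750 µg, with 3 uteri at 2 hr and 3 at 24 hr. The E2 dose therefore differed from that of the other compounds, while BPA and HPTE were matched. Ovariectomy removes the main source of estrogen, so these uteri model an acute response of a resting organ and not the cycle. Levels are log2 signals relative to the 75th percentile of their own array, and differences between groups are log2 differences with the standard error (SE) of the limma fit. Of 32460 probes tested in the fit, a probe was called at an adjusted p under 0.05.

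Between 72.7% and 81.3% of the probes stood well above background on each array, and arrays of the same group correlated at 0.975 to 0.993 over the tested probes. Markers of other organs stood out on some arrays. The summed level of 12 sperm cell markers, on the log2 scale, lay at 5.32 to 7.07 on the vehicle arrays, with vehicle replicate 1 at the top, and at 0.45 to 4.09 on all treated arrays. The same sum over 12 pancreas markers reached 11.66 and 7.84 on the arrays of E2 2 hr replicates 2 and 3 and 2.78 and 4.13 on the E2 24 hr arrays, against -1.19 to -0.26 on all other arrays. Of the 12 pancreas markers 12 rose after E2 at 2 hr and 3 at 24 hr, and none was called after BPA or HPTE. Of all probes, 11.1% were called higher after E2 at 2 hr and 26.3% at 24 hr. All 11 uterine tissue markers stood well above background on every array. At 24 hr 6, 3 and 7 of them rose and 1, 0 and 1 fell after E2, BPA and HPTE. Of 10 leukocyte markers 3 fell after E2 and 2 rose after BPA at 24 hr, and of 6 endothelial markers 3 fell after E2, 3 rose after BPA, and 3 rose and 1 fell after HPTE. At 24 hr 26.3%, 5.09% and 14.9% of all probes were called higher after E2, BPA and HPTE, and 37.6%, 8.03% and 19.1% lower. In whole uteri, a change in the number of cells of a type and a change in RNA per cell cannot be told apart.

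Dividing cells need kinesins that build the bipolar spindle, move chromosomes and complete cytokinesis, and many of these genes are transcribed only as cells approach mitosis. In the ovariectomized uterus E2 is known for driving the epithelium through a synchronous round of division, whereas the transport kinesins move vesicles, organelles and ciliary cargo at all times and are most varied in neurons. The design asks whether BPA and HPTE act on such genes as E2 does, early at 2 hr and late at 24 hr.

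At 24 hr, 9 of the 10 mitotic kinesins rose after each of the 3 compounds, and the exception was Kif2c. Of its relatives outside this class, Kif2a was not called (0.09, -0.05 and -0.19 after E2, BPA and HPTE) and Kif2b was called lower. The median log2 difference of the 10 mitotic kinesins from vehicle was 2.47 for E2, 1.61 for BPA and 2.43 for HPTE. The median of all probes tested was -0.15, -0.03 and -0.06. Over all probes, 26.3% were called higher after E2, 5.09% after BPA and 14.9% after HPTE at 24 hr. The 17 transport kinesins had medians of -0.11, -0.06 and -0.02 in the same comparisons. On single arrays the mitotic median lay between 1.40 and 2.50 on all 8 treated 24-hr arrays and between -0.28 and 0.65 on the 2-hr arrays.

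**Figure D1:**
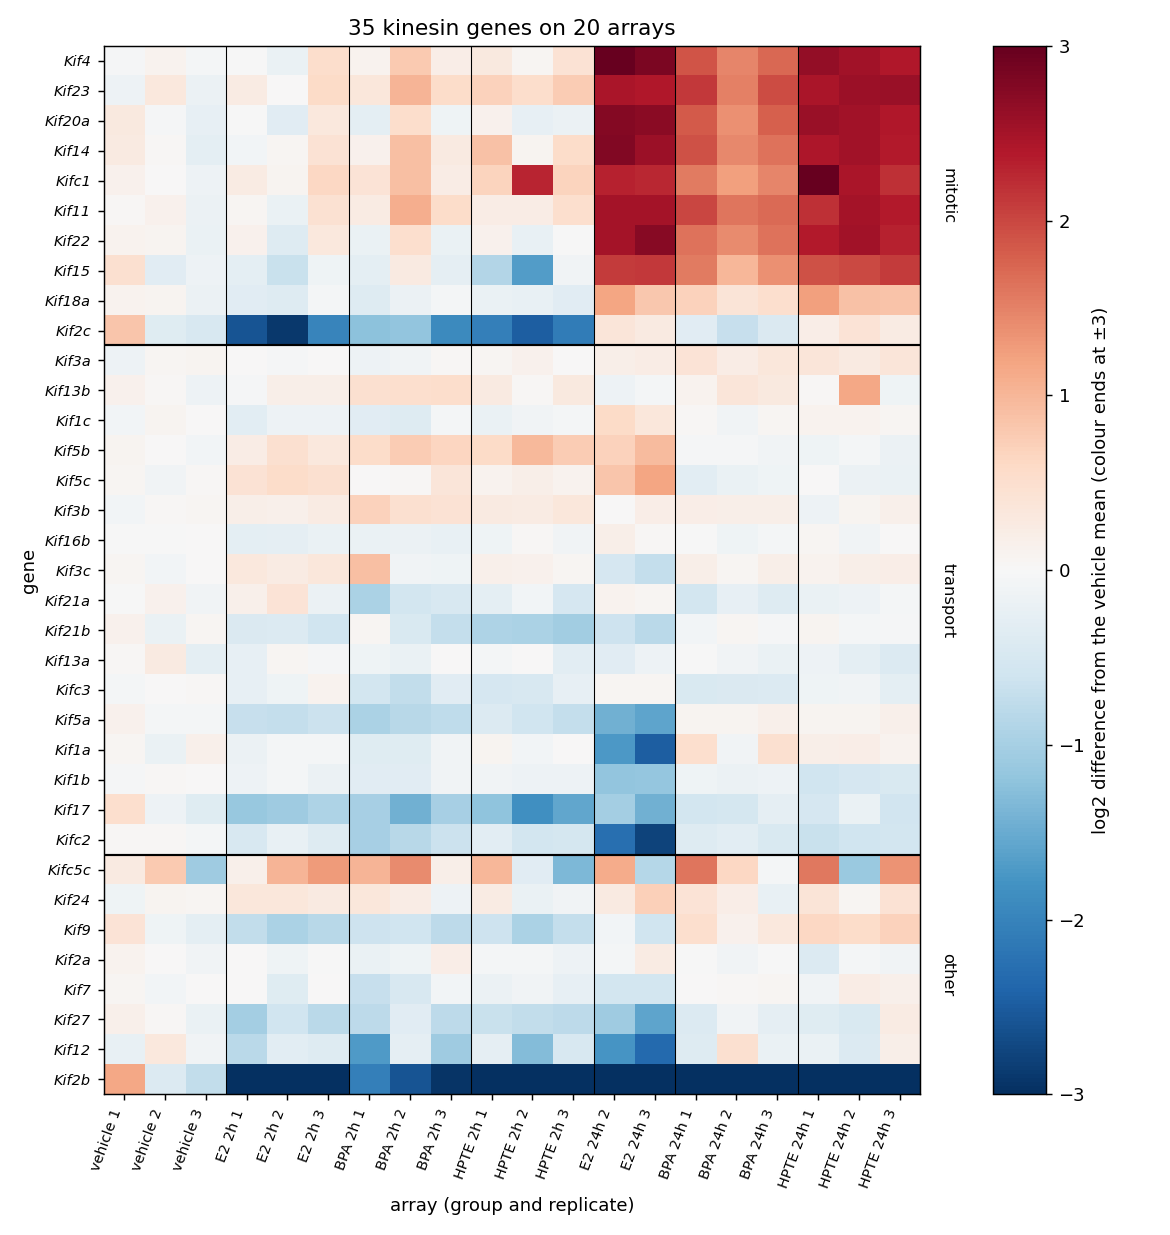
Log2 difference of each kinesin gene (rows, ordered within each class by their mean at 24 hr) from its vehicle mean on each of the 20 arrays (columns, by group and replicate), with red higher, blue lower and the color ending at 3 in either direction. The mitotic block is red on the 8 treated 24-hr arrays apart from Kif2c, while the transport block is mostly pale except for a few genes on the E2 24 hr arrays.

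**Figure D2:**
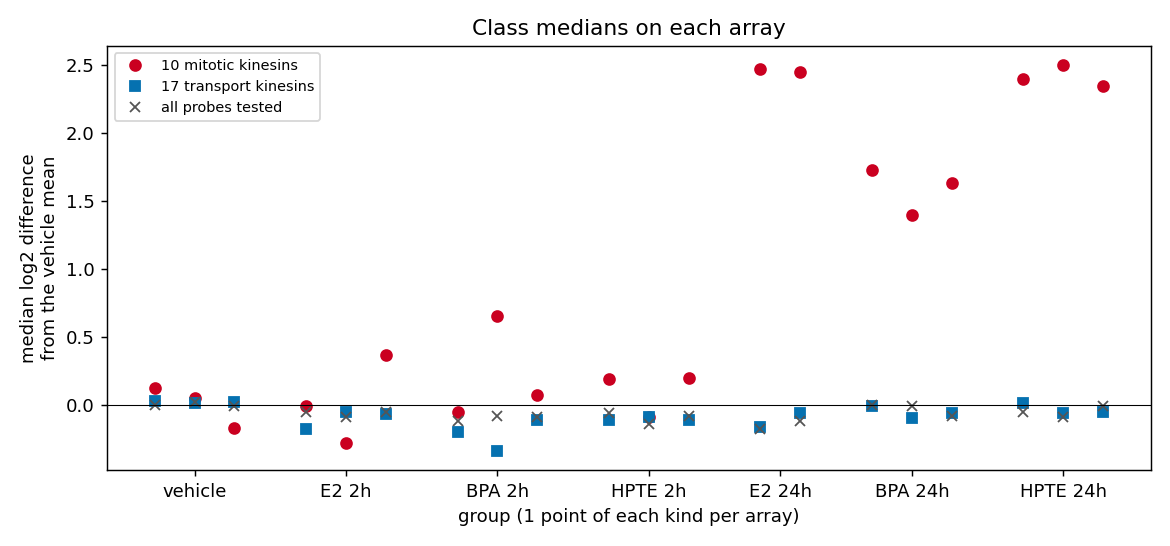
Median log2 difference from the vehicle mean over the 10 mitotic kinesins (red circles), the 17 transport kinesins (blue squares) and all probes tested (gray crosses), with 1 point of each kind per array, by group. The mitotic medians sit at 1.40 to 2.50 on the treated 24-hr arrays, and the transport medians stay between -0.34 and 0.03 on all 20 arrays.

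Among the motors that build the spindle, Kif11 slides antiparallel microtubules apart to separate the poles. Kif11 was at -4.79, -4.68 and -4.98 on the vehicle arrays, -2.31 and -2.32 after E2, -2.82, -3.21 and -3.11 after BPA and -2.62, -2.33 and -2.44 after HPTE at 24 hr. The log2 difference from vehicle was 2.5 ± 0.22 (SE, adjusted p = 1.4e-07) for E2, 1.77 ± 0.19 (SE, adjusted p = 0.000142) for BPA and 2.35 ± 0.19 (SE, adjusted p = 1.82e-06) for HPTE. Every treated 24-hr array lay above every vehicle array for this gene. Kif15 helps Kif11 to keep the poles apart. Kif15 was at -3.18, -3.99 and -3.82 on the vehicle arrays, -1.57 and -1.54 after E2, -2.11, -2.68 and -2.29 after BPA and -1.74, -1.68 and -1.57 after HPTE at 24 hr. Kif15 rose on the log2 scale by 2.11 ± 0.35 (SE, adjusted p = 8.4e-05) after E2, 1.31 ± 0.31 (SE, adjusted p = 0.0128) after BPA and 2 ± 0.31 (SE, adjusted p = 0.000235) after HPTE. Its treated 24-hr arrays also lay above the vehicle arrays. Kifc1, a minus-end motor that focuses microtubules at the poles, had more uneven arrays. Kifc1 was at -2.57, -2.68 and -2.85 on the vehicle arrays, -0.39 and -0.44 after E2, -1.15, -1.47 and -1.24 after BPA and 1.32, -0.24 and -0.51 after HPTE at 24 hr. Relative to vehicle, Kifc1 differed by 2.29 ± 0.49 (SE, adjusted p = 0.000744) after E2, 1.42 ± 0.44 (SE, adjusted p = 0.0444) after BPA and 2.89 ± 0.44 (SE, adjusted p = 0.000175) after HPTE. Replicate 1 of HPTE, at 1.32, stood apart from the other HPTE arrays, and the BPA call rested on an adjusted p close to the threshold that was lost in 18 of 30 alternative fits. The accession of the Kifc1 probe is now named Kifc5b in RefSeq, and since these copies are nearly identical its signal cannot be assigned to one of them.

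The chromokinesins push chromosome arms away from the poles and shape the midzone. Kif4, with its probe at chrX:96054141-96054201 of the mm7 build that the array files use, had the largest increase of the 35 genes after E2 at 24 hr. Kif4 was at -2.52, -2.39 and -2.56 on the vehicle arrays, 0.66 and 0.34 after E2, -0.6, -1.03 and -0.76 after BPA and 0.14, 0.03 and -0.08 after HPTE at 24 hr. The log2 difference from vehicle was 2.99 ± 0.22 (SE, adjusted p = 3.15e-08) for E2, 1.69 ± 0.2 (SE, adjusted p = 0.000202) for BPA and 2.52 ± 0.2 (SE, adjusted p = 1.3e-06) for HPTE. These are 7.95-fold, 3.22-fold and 5.73-fold increases, and the E2, HPTE, BPA and vehicle arrays formed 4 separate ranges in that order. Kif22, the other chromokinesin, also rose. Kif22 was at 0.18, 0.17 and -0.12 on the vehicle arrays, 2.56 and 2.81 after E2, 1.71, 1.5 and 1.72 after BPA and 2.45, 2.61 and 2.4 after HPTE at 24 hr. Kif22 rose on the log2 scale by 2.61 ± 0.22 (SE, adjusted p = 1.05e-07) after E2, 1.57 ± 0.2 (SE, adjusted p = 0.000303) after BPA and 2.41 ± 0.2 (SE, adjusted p = 1.69e-06) after HPTE. The BPA arrays of Kif22 lay below those of the other compounds and above vehicle. Kif18a, which damps chromosome movement at the kinetochore, changed least among the 9. Kif18a was at -3.12, -3.14 and -3.4 on the vehicle arrays, -2.02 and -2.4 after E2, -2.53, -2.84 and -2.7 after BPA and -1.99, -2.35 and -2.37 after HPTE at 24 hr. Relative to vehicle, Kif18a differed by 1 ± 0.16 (SE, adjusted p = 5.01e-05) after E2, 0.53 ± 0.14 (SE, adjusted p = 0.0229) after BPA and 0.98 ± 0.14 (SE, adjusted p = 0.000118) after HPTE. All treated 24-hr arrays of Kif18a still lay above the vehicle arrays.

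Cytokinesis depends on Kif23, the motor of centralspindlin, on Kif20a, which carries the chromosomal passenger complex to the midzone, and on Kif14 at the midbody. Kif23 was at -2.11, -1.65 and -2.13 on the vehicle arrays, 0.5 and 0.44 after E2, 0.16, -0.45 and 0 after BPA and 0.5, 0.61 and 0.63 after HPTE at 24 hr. The log2 difference from vehicle was 2.43 ± 0.22 (SE, adjusted p = 1.89e-07) for E2, 1.86 ± 0.19 (SE, adjusted p = 0.000109) for BPA and 2.54 ± 0.19 (SE, adjusted p = 1.1e-06) for HPTE. Kif23 was the member with the largest BPA increase, 3.64-fold. Kif20a was at 0.25, -0.09 and -0.31 on the vehicle arrays, 2.71 and 2.65 after E2, 1.78, 1.33 and 1.74 after BPA and 2.55, 2.46 and 2.36 after HPTE at 24 hr. Kif20a rose on the log2 scale by 2.73 ± 0.24 (SE, adjusted p = 1.56e-07) after E2, 1.67 ± 0.21 (SE, adjusted p = 0.000314) after BPA and 2.5 ± 0.21 (SE, adjusted p = 2.27e-06) after HPTE. The BPA arrays of Kif20a formed a range of their own between the vehicle arrays and those of the other compounds. Kif14 was at -4.81, -5.05 and -5.39 on the vehicle arrays, -2.32 and -2.51 after E2, -3.19, -3.64 and -3.46 after BPA and -2.65, -2.55 and -2.7 after HPTE at 24 hr. Relative to vehicle, Kif14 differed by 2.67 ± 0.26 (SE, adjusted p = 3.74e-07) after E2, 1.65 ± 0.23 (SE, adjusted p = 0.000425) after BPA and 2.45 ± 0.23 (SE, adjusted p = 4.61e-06) after HPTE. All 3 genes kept their treated 24-hr arrays clear of vehicle.

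**Figure D3:**
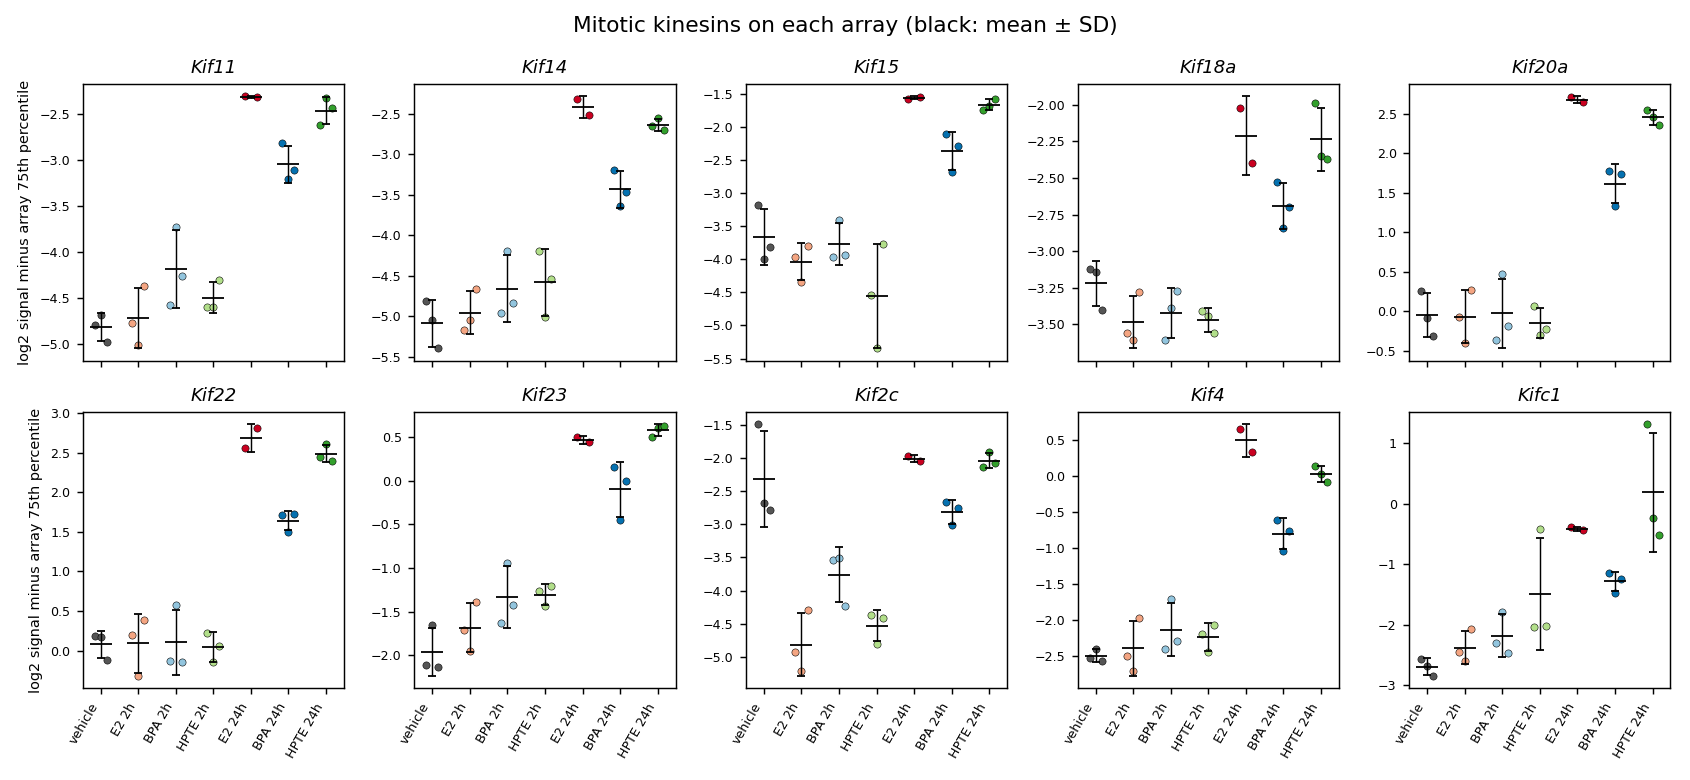
Log2 signal of each mitotic kinesin relative to the array's 75th percentile (vertical axes, scaled per gene) by group, 1 dot per array, with black bars for the mean and SD of 2 or 3 arrays. At 24 hr the BPA arrays lie below the E2 and HPTE arrays in all 10 panels, while Kif2c on the 24-hr arrays overlaps its vehicle arrays and is lowest at 2 hr.

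Probes of the mitotic kinesins that the rule left aside gave the same picture at 24 hr for Kif11, Kif15, Kif20a, Kif23, Kif4 and Kifc1. Of 7 such probes, all 7 were called higher after E2 and after HPTE at 24 hr and 6 after BPA. The second Kifc1 probe was at 1.32 with an adjusted p of 0.0903 for BPA. Of all probes 26.3%, 14.9% and 5.09% were called higher after E2, HPTE and BPA. No further probe was tested for Kif14, Kif18a, Kif22 or Kif2c. Slides give a further check, since 4 treated 24-hr arrays shared a slide with a vehicle array. On slide 5 the mitotic median stood above that slide's vehicle array by 2.62 for E2, 1.89 for BPA and 2.50 for HPTE, with all 10 genes higher in each. On slide 3 the BPA array stood above by 1.32, with 9 of 10 genes higher. Without BPA 24 hr replicate 1, the BPA count of 9 mitotic kinesins became 6, and all kinesins called after BPA went from 12 to 7.

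Other members of the division machinery also rose at 24 hr. Of 28 spindle and cytokinesis partners, a list of kinetochore, checkpoint and midzone proteins that includes Cenpe and Kif20b, 25 rose and 2 fell after E2, 22 rose after BPA and 23 rose after HPTE at 24 hr, with median log2 differences of 2.48, 1.31 and 2.04, where 26.3%, 5.09% and 14.9% of all probes rose. Birc5 of the passenger complex rose most after E2 (3.34) and Hmmr, a spindle protein, most after BPA (2.20) and HPTE (2.76), and Numa1 was the lowest (-1.30 after E2). Of 8 proliferation markers, 8, 5 and 6 rose after E2, BPA and HPTE and 1 fell after BPA, with Mcm2, a replication helicase subunit, lowest there (-0.49). Their summed log2 level was 3.75 to 3.86 on vehicle arrays, 5.86 to 5.89 after E2, 4.26 to 4.44 after BPA and 4.83 to 4.93 after HPTE. The part that the share of dividing cells had in the kinesin values was not tested.

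Cell-cycle genes that peak near mitosis often carry, close to their start, a CCAAT box bound by NF-Y and a cell cycle homology region, whose core reads TTTGAA or, less often, TTCGAA. RefSeq promoters (GRCm38.p6, 250 bases before to 50 after the start) were matched by symbol for 9 of the 10 mitotic kinesins. The letters of both were searched on both strands, and a match on the other strand reads as the reverse complement in the sequences. The first core was in 8 of the 9 mitotic promoters and in 17.9% of 32841 promoters of that length, the second in none of the 9 and in 1.56%, and the CCAAT box in 6 of the 9 and in 37.4%. Of the transport kinesins 11 had a promoter, with either core in 1 and the CCAAT box in 3. In 6 of the 9 the left base of the core lay within 20 bases of the start, as in 2.33% of all promoters, a window chosen after the positions were seen. Promoters of 6 members that rose at 24 hr after every compound, chosen to show where the motifs fall, are shown 5′ to 3′ with the motifs in capitals, together with that of Kif2c, whose levels against vehicle ran differently.
Kif11 (chr19:37376132-37376431, plus strand): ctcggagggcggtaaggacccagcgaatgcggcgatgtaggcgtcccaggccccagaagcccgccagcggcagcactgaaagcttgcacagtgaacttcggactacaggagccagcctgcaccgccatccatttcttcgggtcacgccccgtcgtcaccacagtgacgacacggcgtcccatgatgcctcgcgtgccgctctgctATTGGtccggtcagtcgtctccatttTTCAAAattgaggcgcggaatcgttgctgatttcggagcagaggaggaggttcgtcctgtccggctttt
Kif15 (chr9:122950831-122951130, plus strand): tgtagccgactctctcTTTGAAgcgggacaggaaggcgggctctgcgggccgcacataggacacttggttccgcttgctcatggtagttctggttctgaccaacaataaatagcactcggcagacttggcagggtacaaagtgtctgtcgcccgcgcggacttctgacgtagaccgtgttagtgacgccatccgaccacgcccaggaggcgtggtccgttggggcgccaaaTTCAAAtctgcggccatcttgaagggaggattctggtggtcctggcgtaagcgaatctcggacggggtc
Kif4 (chrX:100625815-100626114, plus strand): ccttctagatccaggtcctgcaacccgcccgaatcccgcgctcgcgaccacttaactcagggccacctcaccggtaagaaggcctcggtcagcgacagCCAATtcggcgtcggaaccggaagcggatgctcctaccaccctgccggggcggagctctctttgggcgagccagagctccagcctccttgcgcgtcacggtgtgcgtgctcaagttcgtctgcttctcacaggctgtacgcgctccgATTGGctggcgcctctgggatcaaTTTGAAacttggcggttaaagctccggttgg
Kif22 (chr7:127042371-127042670, minus strand): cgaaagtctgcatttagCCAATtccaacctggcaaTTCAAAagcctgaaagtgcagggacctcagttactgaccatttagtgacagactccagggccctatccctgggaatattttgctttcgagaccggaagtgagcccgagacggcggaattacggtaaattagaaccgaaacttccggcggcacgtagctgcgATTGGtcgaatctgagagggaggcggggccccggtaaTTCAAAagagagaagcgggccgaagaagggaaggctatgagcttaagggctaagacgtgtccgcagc
Kif23 (chr9:61946750-61947049, minus strand): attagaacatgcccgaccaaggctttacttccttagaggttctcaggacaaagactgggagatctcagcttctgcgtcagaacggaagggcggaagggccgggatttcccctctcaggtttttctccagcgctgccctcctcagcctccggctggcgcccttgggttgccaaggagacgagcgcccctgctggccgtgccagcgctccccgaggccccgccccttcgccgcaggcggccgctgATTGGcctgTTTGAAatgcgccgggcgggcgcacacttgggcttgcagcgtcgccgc
Kif14 (chr1:136467598-136467897, plus strand): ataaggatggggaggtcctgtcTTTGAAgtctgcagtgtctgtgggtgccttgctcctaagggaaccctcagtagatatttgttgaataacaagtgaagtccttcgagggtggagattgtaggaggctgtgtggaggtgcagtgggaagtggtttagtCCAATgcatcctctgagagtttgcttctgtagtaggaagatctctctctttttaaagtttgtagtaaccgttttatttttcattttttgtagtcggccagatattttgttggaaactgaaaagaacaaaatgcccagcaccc
Kif2c (chr4:117178723-117179022, minus strand): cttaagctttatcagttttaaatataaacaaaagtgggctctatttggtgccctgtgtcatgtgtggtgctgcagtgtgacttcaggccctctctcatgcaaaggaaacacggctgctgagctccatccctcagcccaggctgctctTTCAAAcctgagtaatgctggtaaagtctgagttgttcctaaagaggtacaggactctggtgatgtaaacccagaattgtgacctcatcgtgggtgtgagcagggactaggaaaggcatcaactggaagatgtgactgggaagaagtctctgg
The left base of the core lay at -19 in Kif11, at -19 and -234 in Kif15, at -17 and -215 in Kif22, 3 in Kif23 and 20 in Kif4, with the first transcribed base as 1. In Kif14 it lay at -228 and in Kif2c at -103. Kif18a held none of these letters, and Kif15 and Kif2c held a core but no CCAAT box. Whether the motifs go with the size of a change was not tested. A match is only a run of letters, and these arrays did not measure binding.

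At 2 hr the mitotic kinesins were near vehicle. Their median log2 difference was 0.06 for E2, 0.19 for BPA and 0.11 for HPTE, and 0, 2 and 2 of 10 were called higher, where 11.1%, 19.3% and 19.9% of all probes were called higher. Kif23 rose after BPA (0.63 ± 0.19 SE, adjusted p = 0.0143) and HPTE (0.66 ± 0.19 SE, adjusted p = 0.0114). At 2 hr Kif23 was at -1.71, -1.95 and -1.39 after E2, -1.63, -0.94 and -1.42 after BPA and -1.26, -1.44 and -1.21 after HPTE. Kif11 rose after BPA (0.63 ± 0.19 SE, adjusted p = 0.0139). At 2 hr Kif11 was at -4.77, -5.01 and -4.37 after E2, -4.57, -3.73 and -4.26 after BPA and -4.59, -4.59 and -4.3 after HPTE. The other Kif11 probes were not called after BPA (-0.41, adjusted p = 0.337, and 0.39, adjusted p = 0.248), and one was lower after HPTE (-1.11, adjusted p = 0.0134), so the probes disagree at 2 hr. BPA replicate 2 was the highest of its group for both genes. Kifc1 rose after HPTE (1.21 ± 0.44 SE, adjusted p = 0.0321), where replicate 2 stood apart. At 2 hr Kifc1 was at -2.46, -2.61 and -2.08 after E2, -2.3, -1.79 and -2.47 after BPA and -2.04, -0.42 and -2.03 after HPTE. Kif15 was called lower after HPTE (-0.88 ± 0.31 SE, adjusted p = 0.0297), although its arrays overlapped those of vehicle. At 2 hr Kif15 was at -3.96, -4.34 and -3.8 after E2, -3.96, -3.4 and -3.94 after BPA and -4.54, -5.34 and -3.77 after HPTE. Over all probes 17.0%, 30.2% and 28.2% were called lower after E2, BPA and HPTE at 2 hr.

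The other 5 mitotic kinesins apart from Kif2c were not called at 2 hr. At 2 hr Kif4 was at -2.5, -2.7 and -1.96 after E2, -2.39, -1.7 and -2.29 after BPA and -2.19, -2.44 and -2.06 after HPTE. At 2 hr Kif22 was at 0.2, -0.32 and 0.39 after E2, -0.13, 0.58 and -0.14 after BPA and 0.22, -0.15 and 0.06 after HPTE. At 2 hr Kif18a was at -3.56, -3.61 and -3.28 after E2, -3.61, -3.39 and -3.27 after BPA and -3.41, -3.44 and -3.56 after HPTE. The Kif18a arrays after HPTE lay just below those of vehicle, and all others overlapped them. At 2 hr Kif20a was at -0.07, -0.4 and 0.27 after E2, -0.36, 0.47 and -0.19 after BPA and 0.07, -0.3 and -0.22 after HPTE. At 2 hr Kif14 was at -5.17, -5.04 and -4.66 after E2, -4.96, -4.19 and -4.83 after BPA and -4.19, -5.01 and -4.54 after HPTE. Both overlapped the vehicle arrays, and the differences of these 5 genes from vehicle ran from -0.26 for Kif18a after E2 to 0.5 for Kif14 after HPTE. Of the partner list 2, 5 and 3 of 28 rose and 0, 3 and 1 fell at 2 hr after E2, BPA and HPTE, where 11.1%, 19.3% and 19.9% of all probes rose and 17.0%, 30.2% and 28.2% fell. The lowest was the checkpoint kinase Bub1b (-0.39, -0.43 and -0.55), and the highest was Mad2l1 of the spindle checkpoint, which was 3.27, 3.43 and 3.39 above vehicle on the log2 scale after E2, BPA and HPTE.

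Kif2c, the depolymerase that corrects faulty attachments at centromeres, was below vehicle at 2 hr and near its vehicle level at 24 hr. Kif2c was at -1.49, -2.68 and -2.79 on the vehicle arrays, -1.97 and -2.05 after E2, -2.67, -3.01 and -2.76 after BPA and -2.13, -1.91 and -2.08 after HPTE at 24 hr. At 2 hr Kif2c was at -4.93, -5.22 and -4.3 after E2, -3.54, -3.51 and -4.24 after BPA and -4.37, -4.8 and -4.42 after HPTE. All 9 treated arrays at 2 hr lay below the vehicle arrays, with differences of -2.49 ± 0.3 (SE, adjusted p = 2.36e-05) for E2, -1.44 ± 0.3 (SE, adjusted p = 0.00117) for BPA and -2.21 ± 0.3 (SE, adjusted p = 2.78e-05) for HPTE. At 24 hr the differences were 0.31 ± 0.34 (SE, adjusted p = 0.446), -0.49 ± 0.3 (SE, adjusted p = 0.318) and 0.29 ± 0.3 (SE, adjusted p = 0.507). Compared between times, which uses no vehicle array, Kif2c rose by 2.8 after E2, 0.95 after BPA and 2.49 after HPTE. Vehicle replicate 1, the array with the highest sperm cell marker sum, also had the highest Kif2c. Without it the difference from vehicle at 24 hr was 0.73 for E2, now past the threshold with an adjusted p of 0.0323, -0.07 for BPA and 0.7 for HPTE, and at 2 hr it was -2.08, -1.02 and -1.79. Vehicle replicates 2 and 3 also had high marker sums, 5.49 and 5.32, against 0.45 to 4.09 on the treated arrays. Leaving out replicate 1 therefore does not give a vehicle group free of these markers. Kif2c has 1 probe on the array, so its values rest on that probe.

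Kif2b, its relative best known from testis, fell in every comparison with vehicle. Kif2b was at 0.15, -1.39 and -1.75 on the vehicle arrays, -9.37 and -8.31 after E2, -5.07, -4.83 and -4.02 after BPA and -6.56, -5.87 and -5.79 after HPTE at 24 hr. At 2 hr Kif2b was at -8.62, -7.61 and -6.2 after E2, -3.03, -3.59 and -3.93 after BPA and -4.46, -5.21 and -5.85 after HPTE. The vehicle arrays lay above every treated array. Its differences were -6.48 ± 0.6 (SE, adjusted p = 2.24e-06), -2.52 ± 0.6 (SE, adjusted p = 0.00264) and -4.18 ± 0.6 (SE, adjusted p = 3.8e-05) at 2 hr for E2, BPA and HPTE and -3.64 and -5.08 at 24 hr for BPA and HPTE. Kif2b was well above background on 1 of the E2 2 hr arrays and on neither E2 24 hr array, and vehicle was at least 60.9-fold higher than E2 24 hr, a bound taken against the lowest signal among probes well above background or the probe's own signal, whichever was higher, with an adjusted p of 1.13e-07 in the limma fit. All 11 sperm cell markers tested were lower in all 6 comparisons with vehicle, with medians from -6.19 for E2 at 24 hr to -2.44 for BPA at 2 hr. After E2, BPA and HPTE, 17.0%, 30.2% and 28.2% of all probes were called lower at 2 hr and 37.6%, 8.03% and 19.1% at 24 hr. The lowest Kif2b array was E2 24 hr replicate 2 (-9.37), and the next was E2 2 hr replicate 1 (-8.62), which had the lowest sperm marker sum of all arrays (0.45). Kif2c was higher on every treated 24-hr array than on every 2-hr array. The marker sums of the treated arrays ranged from 1 to 3.05 at 24 hr and from 0.45 to 4.09 at 2 hr. At 2 hr the sums were 3.13 to 4.09 after BPA, where Kif2c was at -4.24 to -3.51. They were 1.74 to 3.02 after HPTE, with Kif2c at -4.8 to -4.37, and 0.45 to 1.42 after E2, with Kif2c at -5.22 to -4.3. The part of sperm RNA in the values of either gene was not tested.

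**Figure D4:**
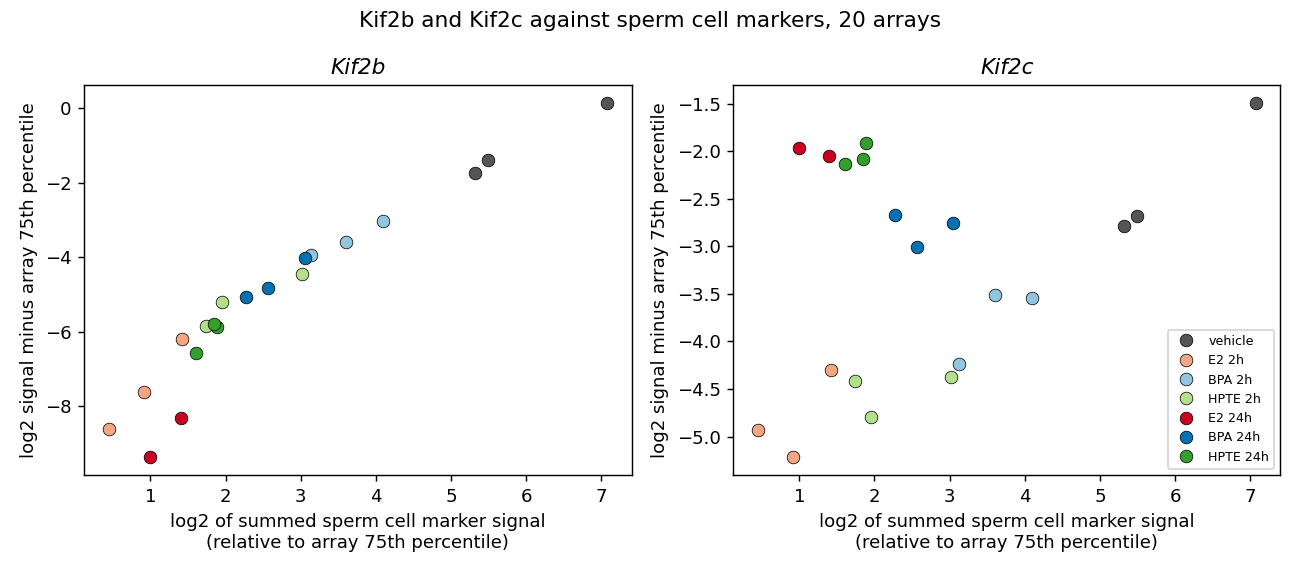
Log2 signal of Kif2b (left) and Kif2c (right) against the log2 summed signal of 12 sperm cell markers, both relative to the array's 75th percentile, with 1 dot per array colored by group. Kif2b runs along the marker sum from -9.37 to 0.15. The treated 24-hr arrays of Kif2c sit at -3.01 to -1.91, with marker sums of 1 to 3.05. Its 2-hr arrays sit at -5.22 to -3.51, with marker sums of 0.45 to 4.09.

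At 24 hr the compounds differed in how far the mitotic kinesins had risen. BPA was lower than E2 for 7 of 10 (Kif11, Kif14, Kif18a, Kif20a, Kif22, Kif23 and Kif4), with a median log2 difference of -0.84, where 24.6% of all probes were lower and 57.8% differed in either direction. The differences ran from -0.48 ± 0.16 (SE, adjusted p = 0.0174) for Kif18a to -1.3 ± 0.22 (SE, adjusted p = 0.000133) for Kif4. Kif15 (-0.8 ± 0.35 SE, adjusted p = 0.0625), Kif2c (-0.8 ± 0.34 SE, adjusted p = 0.055) and Kifc1 (-0.87 ± 0.49 SE, adjusted p = 0.14) missed the threshold, although for all 10 genes every BPA array lay below both E2 arrays. On slide 5, which held both compounds, all 10 were lower on the BPA array by a median of 0.64 in size.

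HPTE and E2 could not be separated for any of the 10 at 24 hr, where 48.8% of all probes differed between them. The median difference was -0.13, and none reached an unadjusted p of 0.05 except Kif4 (-0.47 ± 0.22 SE, adjusted p = 0.0909). The 95% interval of the HPTE minus E2 difference was -0.95 to 0 for Kif4, -0.61 to 0.32 for Kif11, -0.36 to 0.57 for Kif23 and -0.43 to 1.64 for Kifc1, which leaves room for differences of that size. The doses of HPTE and E2 differed.

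BPA and HPTE, given at 1 dose, share a pair of hydroxyphenyl rings on a central carbon that carries methyl groups in BPA and a trichloromethyl group and a hydrogen in HPTE. All 35 kinesins were compared between them at both times, with p-values adjusted over all probes. At 24 hr HPTE was above BPA for Kif4 (0.83 ± 0.2 SE, adjusted p = 0.032), Kif20a (0.84 ± 0.21 SE, adjusted p = 0.042) and Kif22 (0.84 ± 0.2 SE, adjusted p = 0.0297), 3 of 10 mitotic kinesins where 2.99% of all probes were higher and 4.08% differed. All HPTE arrays lay above all BPA arrays for all 10 genes, the median difference was 0.78, and the HPTE arrays were higher for 10 of 10 on both slides that held the pair, by medians of 0.53 and 0.79. These calls were fragile. The 4 kinesins called, including Kif1b, became 0 without BPA 24 hr replicate 2 or HPTE 24 hr replicate 2, 1 without any other array of these groups, 0 with the slide as a block, and 10 with normexp background correction and quantile normalization. At 2 hr no kinesin was called between BPA and HPTE in limma, where 0.437% of all probes were. The 95% interval at 2 hr was -0.53 to 0.32 for Kif4, -0.48 to 0.36 for Kif22 and -0.72 to 0.11 for Kif11, and 8 of the 35 kinesins had an unadjusted p under 0.05, 2 of them mitotic (Kif15 and Kif2c).

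Transport kinesins both rose and fell. After E2 at 24 hr 3 of 17 rose (Kif1c, Kif5b and Kif5c) and 7 fell (Kif17, Kif1a, Kif1b, Kif21b, Kif3c, Kif5a and Kifc2), where 26.3% of all probes were called higher and 37.6% lower. After BPA at 24 hr Kif3a rose and Kifc3 fell, and after HPTE Kif3a rose and Kif1b and Kifc2 fell. In these comparisons 5.09% and 14.9% of all probes were called higher and 8.03% and 19.1% lower. The second Kif3c probe (0.15, adjusted p = 0.857) and 1 of the other Kif17 probes (-0.31, adjusted p = 0.689) were not called after E2, nor was the second Kifc3 probe after BPA (-0.13, adjusted p = 0.717). Neither other Kif21b probe was called after E2 (-0.24, adjusted p = 0.683, and -0.43, adjusted p = 0.0612). Kif3a, a subunit of the heterotrimeric motor of intraflagellar transport, rose by 0.33 and 0.34.

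The largest of these changes were in kinesins of neurons. Kif1a carries synaptic vesicle precursors along axons. Kif1a was at 1, 0.73 and 1.1 on the vehicle arrays, -0.77 and -1.52 after E2, 1.45, 0.84 and 1.42 after BPA and 1.12, 1.15 and 1.06 after HPTE at 24 hr. At 2 hr Kif1a was at 0.76, 0.89 and 0.87 after E2, 0.58, 0.58 and 0.84 after BPA and 1.03, 0.85 and 0.96 after HPTE. The E2 24 hr arrays alone stood apart, below all others, at -2.09 ± 0.2 (SE, adjusted p = 3.48e-07) against vehicle, a 4.27-fold decrease, and the second probe gave -1.08. Kifc2, a minus-end motor of neurons, fell furthest, 5.73-fold. Kifc2 was at 1.2, 1.2 and 1.11 on the vehicle arrays, -1.09 and -1.61 after E2, 0.79, 0.86 and 0.72 after BPA and 0.5, 0.58 and 0.62 after HPTE at 24 hr. At 2 hr Kifc2 was at 0.68, 0.94 and 0.79 after E2, 0.18, 0.34 and 0.53 after BPA and 0.86, 0.61 and 0.65 after HPTE. Its differences from vehicle were -2.52 ± 0.14 (SE, adjusted p = 2.19e-09) for E2 and -0.6 ± 0.12 (SE, adjusted p = 0.00164) for HPTE at 24 hr and lay between -0.82 and -0.37 at 2 hr, called after every compound.

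Kif5a, Kif5b and Kif5c are the heavy chains of conventional kinesin, and they went different ways after E2. Kif5a, a neuronal form, fell after E2 at both times. Kif5a was at 1.8, 1.6 and 1.6 on the vehicle arrays, 0.21 and 0.08 after E2, 1.75, 1.74 and 1.82 after BPA and 1.75, 1.74 and 1.83 after HPTE at 24 hr. At 2 hr Kif5a was at 0.97, 0.95 and 1.02 after E2, 0.72, 0.84 and 0.9 after BPA and 1.24, 1.08 and 0.95 after HPTE. Against vehicle it was -1.52 ± 0.09 (SE, adjusted p = 5.16e-09) for E2 at 24 hr and -0.69, -0.85 and -0.58 for E2, BPA and HPTE at 2 hr, so that after BPA and HPTE it was back near its vehicle range by 24 hr. Its second, dimmer probe was not called after HPTE at 2 hr (-0.18, adjusted p = 0.431), was not lower after E2 at 24 hr (-0.16, adjusted p = 0.504) and was higher after BPA (0.82) and HPTE (0.80) at 24 hr, so the probes disagree there. Kif5b, the form found in most tissues, rose at 2 hr after E2 (0.34), BPA (0.66) and HPTE (0.76), and at 24 hr it was higher after E2 (0.83 ± 0.12 SE, adjusted p = 1.75e-05) and not called after the other compounds. A second Kif5b probe was not called after E2 at 2 hr (0.33, adjusted p = 0.118) and was lower after HPTE at 24 hr (-0.46, adjusted p = 0.0259).

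Kif5c, another neuronal form, rose after E2. Kif5c was at 0.92, 0.74 and 0.88 on the vehicle arrays, 1.69 and 2.02 after E2, 0.54, 0.64 and 0.71 after BPA and 0.86, 0.67 and 0.64 after HPTE at 24 hr. At 2 hr Kif5c was at 1.28, 1.39 and 1.31 after E2, 0.87, 0.88 and 1.21 after BPA and 0.94, 1.02 and 0.96 after HPTE. It was 0.48 ± 0.11 (SE, adjusted p = 0.00309) above vehicle at 2 hr and 1.01 ± 0.12 (SE, adjusted p = 2.69e-06) at 24 hr, where the E2 arrays stood above all others. Its second probe gave 0.09 at 24 hr (adjusted p = 0.626), so this rise rests on 1 probe. Kif1b, a carrier of mitochondria and synaptic vesicle precursors, fell after E2 and less after HPTE. Kif1b was at 1.63, 1.71 and 1.67 on the vehicle arrays, 0.48 and 0.52 after E2, 1.56, 1.5 and 1.52 after BPA and 1.07, 1.16 and 1.22 after HPTE at 24 hr. At 2 hr Kif1b was at 1.51, 1.62 and 1.5 after E2, 1.33, 1.33 and 1.56 after BPA and 1.56, 1.51 and 1.52 after HPTE. The E2 difference was -1.17 ± 0.08 (SE, adjusted p = 1.23e-08) and that of HPTE -0.52 ± 0.07 (SE, adjusted p = 6.21e-05), and its 3 other probes were called lower in both. Kif17, a motor of dendrites and cilia that is also expressed in testis, fell at 2 hr after every compound. Kif17 was at -4.46, -5.13 and -5.33 on the vehicle arrays, -6 and -6.42 after E2, -5.52, -5.5 and -5.24 after BPA and -5.47, -5.18 and -5.55 after HPTE at 24 hr. At 2 hr Kif17 was at -6.11, -6.04 and -5.89 after E2, -5.98, -6.42 and -5.98 after BPA and -6.19, -6.81 and -6.53 after HPTE. Its differences at 2 hr were -1.04, -1.15 and -1.53, and -0.78, -0.89 and -1.28 without vehicle replicate 1. The Kif17 probes are dim and disagreed after E2 at 2 hr, where the second gave 0.53 (adjusted p = 0.525) and the third -0.72 (adjusted p = 0.0864). After BPA and HPTE at 2 hr the second was not called either (-1.11, adjusted p = 0.105, and -0.6, adjusted p = 0.396). The third was called lower in both (-0.98, adjusted p = 0.0131, and -1.07, adjusted p = 0.0079).

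**Figure D5:**
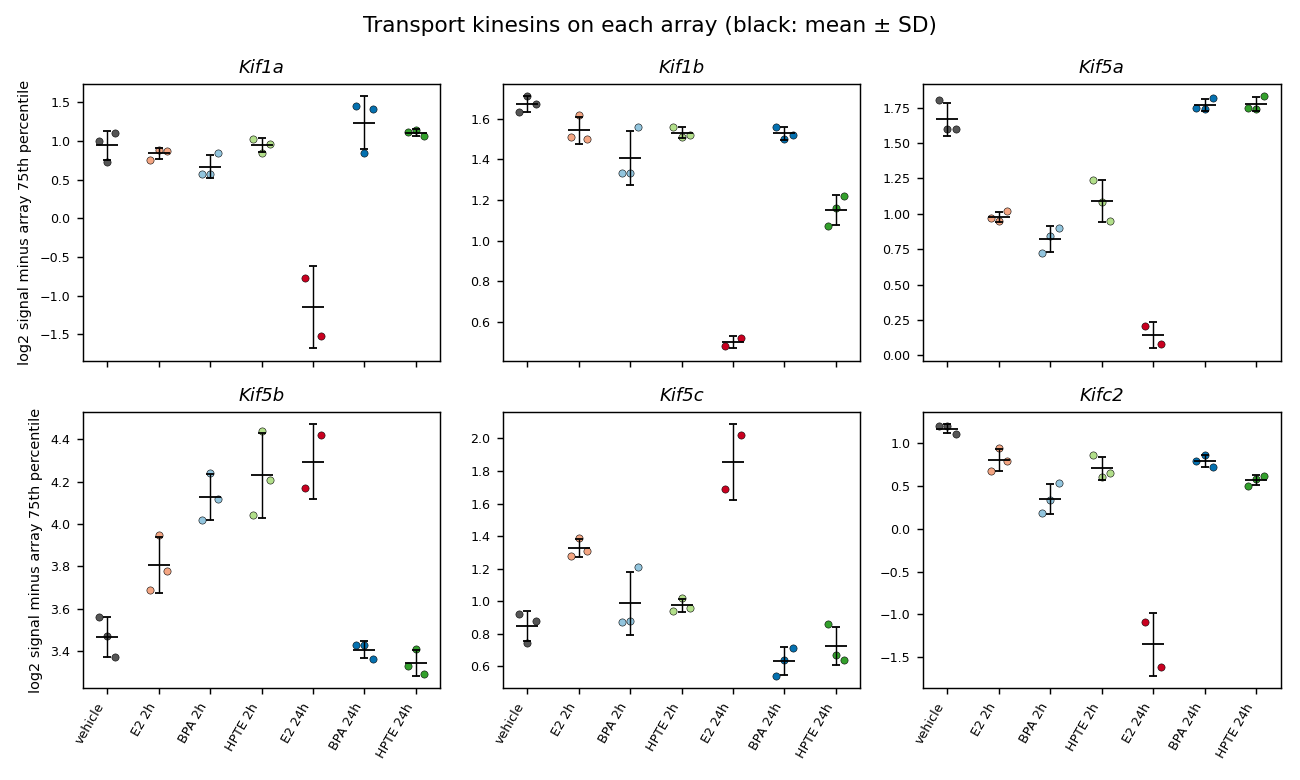
Log2 signal of 6 transport kinesins relative to the array's 75th percentile (vertical axes, scaled per gene) by group, 1 dot per array, with black bars for the mean and SD of 2 or 3 arrays. The E2 24 hr arrays are lowest for Kif1a, Kif1b, Kif5a and Kifc2 and highest for Kif5c, while the BPA and HPTE 24 hr arrays lie at or near the vehicle arrays for Kif1a and Kif5a.

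At 24 hr BPA was higher than E2 for 7 of 17 transport kinesins and lower for 5, where 33.2% of all probes were higher and 24.6% lower. HPTE was higher than E2 for 7 and lower for 3, where 27.3% of all probes were higher and 21.6% lower, so differences from E2 were common over the whole array. Kif1a was 2.39 ± 0.2 (SE, adjusted p = 1.24e-07) higher after BPA than after E2 and 2.26 after HPTE, Kifc2 was 2.14 and 1.91 higher, and Kif5a 1.62 and 1.63. Kif5c was -1.23 and -1.13 and Kif5b -0.89 and -0.95 against E2. On slide 5 the BPA and HPTE arrays exceeded the E2 array by 2.98 and 2.58 for Kif1a and by 2.39 and 2.22 for Kifc2, and on slide 2 the HPTE array exceeded the E2 array by 1.89 and 1.59. The E2 24 hr group has 2 arrays, both with raised pancreas markers, and the part of that tissue in these differences was not tested. Between BPA and HPTE Kif1b alone of the 17 was called, lower after HPTE (-0.37 ± 0.07 SE, adjusted p = 0.0134).

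Neuron markers were mixed. Over all probes 26.3%, 5.09% and 14.9% were called higher and 37.6%, 8.03% and 19.1% lower after E2, BPA and HPTE at 24 hr, beside which the counts of the next lists stand. Of 10 tested, 2 rose and 5 fell after E2 at 24 hr, with Gap43 highest (1.12) and Nefm lowest (-1.89), none was called after BPA and 2 rose after HPTE. Their summed log2 level was 0.77 to 1.2 on vehicle arrays and 0.68 to 0.77 on the E2 24 hr arrays, against 0.51 to 0.72 on the E2 2 hr arrays. The partners of transport kinesins were mixed too. Of 15 light chains and cargo adaptors tested, 3 rose and 7 fell after E2 at 24 hr, with Klc2, a light chain, highest (0.98) and Klc3, a light chain of the sperm tail, lowest (-1.42), while 1 rose after BPA and 3 rose and 1 fell after HPTE. Of 23 subunits of cytoplasmic dynein and dynactin, the minus-end counterpart, 10 rose and 6 fell after E2, 3 rose and 1 fell after BPA and 8 rose and 2 fell after HPTE, with medians of 0.00, 0.06 and 0.12. Dynlrb2, which is also on the list of motile cilium markers, was lowest in all 3 (-3.06, -1.17 and -1.06).

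At 2 hr 2 transport kinesins rose and 5 fell after E2, 2 rose and 9 fell after BPA, and 2 rose and 5 fell after HPTE. Over all probes 11.1%, 19.3% and 19.9% were higher and 17.0%, 30.2% and 28.2% lower in these comparisons. Kif5b rose and Kif5a, Kif17, Kif21b and Kifc2 fell after all 3, each against the vehicle arrays labeled as 24 hr. Kif21b, a motor of dendrites and lymphoid cells, was -0.48, -0.37 and -0.98 against vehicle. Its other probes were not called after E2 (-0.09, adjusted p = 0.905, and -0.20, adjusted p = 0.427) or BPA (-0.28, adjusted p = 0.628, and -0.05, adjusted p = 0.842). After HPTE one of them was lower (-0.51, adjusted p = 0.0215) and the other was not called (-0.17, adjusted p = 0.78), so the fall after E2 and BPA rests on 1 probe. Kif3b, the partner of Kif3a, rose after BPA (0.54) and HPTE (0.28). Compared with E2, 8 of 35 kinesins differed after BPA and 4 after HPTE at 2 hr, where 19.0% and 16.6% of all probes did. Kif21a, which limits microtubule growth at the cell cortex, was lower after BPA (-0.79 ± 0.15 SE, adjusted p = 0.00284) and Kif21b after HPTE (-0.5 ± 0.15 SE, adjusted p = 0.0288). Kif5b was higher than after E2 in both, by 0.32 and 0.42. Kif13a and Kif13b, carriers of endosomal and membrane cargo, were called in none of the 6 comparisons with vehicle on their brightest probes. A further probe of Kif13a was lower after HPTE at 2 hr (-0.35, adjusted p = 0.0267) and after E2 (-0.34, adjusted p = 0.0382) and HPTE (-0.47, adjusted p = 0.00706) at 24 hr, and the other Kif13b probe was not tested. The remaining transport members had changes under 1 in size.

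Among the 8 other kinesins, Kif12, of epithelia such as the kidney, fell after E2 at 24 hr. Kif12 was at -1.6, -1.06 and -1.48 on the vehicle arrays, -3.16 and -3.71 after E2, -1.76, -0.91 and -1.58 after BPA and -1.59, -1.78 and -1.21 after HPTE at 24 hr. At 2 hr Kif12 was at -2.2, -1.69 and -1.77 after E2, -3.08, -1.64 and -2.45 after BPA and -1.64, -2.67 and -1.85 after HPTE. The difference was -2.05 ± 0.39 (SE, adjusted p = 0.000284), the E2 24 hr arrays lay below all others, and its second probe gave -1.91. After BPA at 2 hr it was also called lower (-1.01 ± 0.35 SE, adjusted p = 0.0258). Kif27, a relative of Kif7 at motile cilia, fell in 4 comparisons. Kif27 was at -2.99, -3.1 and -3.33 on the vehicle arrays, -4.2 and -4.73 after E2, -3.54, -3.25 and -3.41 after BPA and -3.51, -3.6 and -2.89 after HPTE at 24 hr. At 2 hr Kif27 was at -4.16, -3.74 and -3.95 after E2, -3.92, -3.49 and -3.92 after BPA and -3.8, -3.88 and -3.92 after HPTE. Its differences were -0.81, -0.63 and -0.73 at 2 hr and -1.32 ± 0.21 (SE, adjusted p = 6.09e-05) for E2 at 24 hr. Kif9, a kinesin of motile cilia and sperm tails, fell at 2 hr by 0.84, 0.66 and 0.76 and rose after HPTE at 24 hr by 0.62. Of 11 motile cilium markers tested 6, 7 and 7 fell at 2 hr after E2, BPA and HPTE and 7, 4 and 4 at 24 hr, with Tekt1, also a sperm protein, lowest in all 6. Over all probes 17.0%, 30.2% and 28.2% fell at 2 hr and 37.6%, 8.03% and 19.1% at 24 hr. Their part and that of the sperm markers in these values was not tested.

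Kif7, which tunes hedgehog signaling at the cilium tip, fell after BPA at 2 hr (-0.42) and E2 at 24 hr (-0.56). Kif24, a centriole protein that restrains cilium assembly, rose after E2 at 24 hr (0.49 ± 0.2 SE, adjusted p = 0.0415), and its second probe rose by 1.93. Kif2a, the depolymerase of spindle poles and axons, and Kifc5c, a copy close to Kifc1 with an SD of up to 1.5 within a group, were called in none of the 6 comparisons with vehicle on their brightest probes. Dimmer probes of Kif2a were called lower after BPA at 2 hr (-0.40, adjusted p = 0.0141) and after E2 at 24 hr (-0.74, adjusted p = 0.00833). In all, 11, 19 and 14 of 35 kinesins were called against vehicle after E2, BPA and HPTE at 2 hr, where 28.1%, 49.4% and 48.1% of all probes were. At 24 hr 24, 12 and 14 were called, where 63.8%, 13.1% and 34.0% of all probes were. These counts lay near the shares of all probes or, after HPTE at 2 hr, below them, except after BPA at 24 hr, where 9 of the 12 were mitotic.

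Between 2 and 24 hr within a compound, 10 of 10 mitotic kinesins rose after E2 and HPTE and 9 after BPA, where 25.9%, 29.5% and 28.2% of all probes rose. The medians were 2.51, 2.15 and 1.23, and the gene missed after BPA was Kifc1 (0.9 ± 0.44 SE, adjusted p = 0.102). Of the 17 transport kinesins 4, 6 and 4 rose and 5, 3 and 3 fell after E2, BPA and HPTE, where 30.1%, 20.2% and 24.6% of all probes fell. Kif5b rose further after E2 (0.49) and fell back after BPA (-0.72) and HPTE (-0.88). Kif5a fell further after E2 (-0.83) and came back after BPA (0.95) and HPTE (0.68). Tested as a difference of differences, the change over time differed from that of E2 for 21 of 35 kinesins after BPA and 15 after HPTE, where 50.9% and 46.1% of all probes did. It was smaller after BPA for 8 mitotic kinesins, among them Kif2c. The BPA and E2 arrays at 2 hr differed in their sperm cell marker sums, whose part in the Kif2c value was not tested. After HPTE the change differed from that of E2 for none of the 10 in limma, with no unadjusted p under 0.05. Between BPA and HPTE none of the 35 was called in limma, where 0.0863% of all probes were, although 13 had an unadjusted p under 0.05, 9 of them mitotic.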

How the data were processed

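Each of the 20 arrays held the Cy3-labeled RNA (500 ng) of 1 uterus. Per the file headers, Agilent Feature Extraction 9.5 gave background-subtracted, detrended intensities without scaling between arrays. The authors deposited these as scanner files with flags of each spot. A value table deposited by the authors held the same intensities and was not used for tests. Groups came from the sample titles.

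Intensities were converted to log2 and centered on each array's 75th percentile, and spots of 1 probe were averaged after outlier flags and control spots were left out. For the 32460 probes that passed the filter on dim probes, limma 3.58.1 (R 4.3.3) estimated 1 mean per group from all 7 groups together, with two-sided p-values adjusted by Benjamini-Hochberg within each contrast and a threshold of 0.05. The vehicle arrays serve as controls for every compound and both times, so the comparisons with vehicle share them. The kinesins, their classes and all gene lists were chosen with earlier results of these data known. Values in every sample are given for the mitotic kinesins and for others called with a log2 change of at least 1 against vehicle, and of each list the members with the largest or smallest change are named. Alternatives covered background correction, scaling, the filter, the probe rule, slide and replicate blocks, the samples fitted, a 2-fold minimum and each array left out. The tests were also tried on simulated data. The p-values measure the spread between single uteri, and the number of arrays limits the precision.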

Additional observations from a re-analysis of the deposited data

Results flagged for a closer look

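The change between 2 and 24 hr differed between compounds, by a test of the difference of differences in limma, for 21 of 35 kinesins when BPA was set against E2 and for 15 when HPTE was, where 50.9% and 46.1% of all probes differed. Among mitotic kinesins the change after BPA was smaller than after E2, on the log2 scale, for Kif11 (-1.26), Kif14 (-1.31), Kif18a (-0.53), Kif20a (-1.11), Kif22 (-1.06), Kif23 (-0.92), Kif2c (-1.85) and Kif4 (-1.56). The sperm cell marker sums at 2 hr were 3.13 to 4.09 after BPA and 0.45 to 1.42 after E2. Their part in the Kif2c value was not tested. Among transport kinesins the change after BPA was higher than after E2 for Kif17 (0.90), Kif1a (2.57), Kif1b (1.16), Kif21b (0.60), Kif3c (0.83), Kif5a (1.78) and Kifc2 (2.59), and lower for Kif1c (-0.40), Kif5b (-1.21) and Kif5c (-0.88). Of the other kinesins it was higher for Kif12 (2.52), Kif27 (0.89) and Kif7 (0.89).

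With HPTE against E2, the change was higher for Kif17 (1.30), Kif1a (2.16), Kif1b (0.66), Kif21b (1.22), Kif3c (0.95), Kif5a (1.52) and Kifc2 (2.01), and lower for Kif16b (-0.30), Kif1c (-0.46), Kif5b (-1.37) and Kif5c (-0.78). It was also higher for Kif12 (2.07), Kif27 (1.05), Kif7 (0.71) and Kif9 (0.88). All of these comparisons share the E2 arrays, of which E2 2 hr replicates 2 and 3 and both 24 hr arrays had raised pancreas markers, and the part of that tissue was not tested.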

How the results depend on the processing

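Over 30 alternatives, the 211 gene and contrast pairs called gave 6312 refits, of which 5803 kept their direction and call, 506 lost the call and 3 turned, and of 9393 refits of uncalled pairs 165 gained a call in the same direction and 2 turned. The turned values were 0.36 for Kif1b and 0.02 for Kif5c (HPTE against E2 at 2 hr, no scaling), -0.03 for Kif27 and -0.28 for Kif3a (HPTE, 24 against 2 hr, spike-in scaling) and 0.27 for Kif3c (BPA, 24 against 2 hr, without BPA 2 hr replicate 1, with a range of -0.26 to 0.27 over the arrays left out). The cause was not tested.

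Against vehicle, spike-in scaling gave 3, 3 and 5 called kinesins for E2, BPA and HPTE at 2 hr and 7 for BPA at 24 hr, no scaling gave 12 for BPA at 2 hr, the fit of only the groups compared gave 12 there, and a 2-fold minimum gave 3, 4 and 4 at 2 hr and 9 for HPTE at 24 hr. Between compounds, BPA against E2 at 2 hr gave 0 with only the groups compared, 4 with the slide block, 1 with spike-in scaling and 2 with the 2-fold minimum. HPTE against E2 at 2 hr gave 11 with no scaling, 2 with normexp and quantile, with only the groups compared or with probes averaged, and 1 with the slide block, spike-in scaling or the 2-fold minimum. At 24 hr BPA against E2 gave 12 with spike-in scaling or the 2-fold minimum, HPTE against E2 gave 7 with either, and HPTE against BPA gave 10 with normexp and quantile and 0 with no scaling, spike-in scaling, only the groups compared, the slide block or the 2-fold minimum. Between times, spike-in scaling gave 14 for E2 and 5 for BPA, with 4 mitotic kinesins higher for BPA, no scaling gave 13 for BPA, and the 2-fold minimum gave 14, 7 and 12 for E2, BPA and HPTE.

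With the replicate block the HPTE against BPA count at 24 hr was 1, and over 525 pairs 5 lost and 5 gained a call. Samples with the same number correlated at a median of -0.049 (from -0.361 to 0.333), so the numbers were not taken to pair the samples.

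The mitotic median at 24 hr was 1.90, 1.14 and 1.85 for E2, BPA and HPTE with normexp and quantile and 2.12 for HPTE with spike-in scaling, and at 2 hr -0.17 for E2 with no scaling and 0.36 for HPTE with spike-in scaling. The transport median for E2 at 24 hr was 0.09 with normexp and quantile, 0.05 with quantile normalization, 0.07 with the slide block and -0.02 over probes well above background on all arrays. For BPA and HPTE at 24 hr, unscaled values gave -0.17 and -0.13 and spike-in scaling gave -0.19 and -0.32. At 2 hr it was -0.32 (no scaling) and -0.17 (spike-in) for E2, -0.14 (probes averaged) and -0.18 (spike-in) for BPA, and 0.03 (no scaling), -0.04 (normexp and quantile), -0.01 (quantile) and 0.14 (spike-in) for HPTE. The median of all probes itself moved, to -0.29 for E2 at 2 hr with no scaling and to -0.37 for HPTE at 24 hr and 0.16 at 2 hr with spike-in scaling.

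With each array left out in turn, called kinesins numbered 7 to 13 for BPA 24 hr against vehicle, 3 to 9 for BPA and 1 to 5 for HPTE against E2 at 2 hr, 0 to 1 for HPTE against BPA at 2 hr and 0 to 6 at 24 hr. The mitotic median ran from -0.03 to 0.34 for BPA at 2 hr. The transport median ran from -0.13 to -0.01 for E2 at 2 hr, -0.19 to -0.05 for E2 at 24 hr and -0.08 to 0.00 for HPTE at 24 hr. Dim probes such as those of Kif17, Kif2b and Kifc5c limit what could be seen.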
